A study of Mus musculus with 4 samples.

Results

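Serpins of clade A are secreted by hepatocytes and make up much of the protease inhibitor content of blood plasma. Most of them present a flexible reactive loop to a target protease, which is trapped when it cuts the loop, and the residues of that loop set which protease is caught. A few members have lost this activity and carry hormones instead. Mice hold several copies of the gene for α1-antitrypsin and of the gene for α1-antichymotrypsin, whereas the human genome has a single functional copy of each. The 10 genes described here were taken by symbol from the 31053 genes in the deposited matrices. They are the α1-antitrypsin copies Serpina1a, Serpina1b, Serpina1c, Serpina1d and Serpina1e, the α1-antichymotrypsin relatives Serpina3k, Serpina3m and Serpina3n, and the hormone carriers Serpina6, which binds corticosteroids, and Serpina7, which binds thyroxine.

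Liver cells of C57BL/6 mice were profiled in 4 droplet libraries that count RNA molecules by unique molecular identifiers (UMIs), read from the 3′ ends of transcripts. The library labelled HCC came from a suspension of the HCC region of a liver. The high-AFP library is titled as control diet with high AFP while its deposited file carries the diet name CD-HFD, so it is named here by its AFP label alone. The low-AFP library is titled CD-HFD with low AFP, and the control library is titled control diet. HCC and AFP are the usual abbreviations of hepatocellular carcinoma and α-fetoprotein. The titles give 15 months for all 4 libraries and the age field gives 17 months. The labels describe the same preparation for all 4, in which purified parenchymal and live non-parenchymal fractions were mixed in equal parts, so the share of hepatocytes among the cells is set in part by the mixing. How many animals entered each library is not given in the labels used here. There is 1 library per group, so no test between groups could be made, every difference lacks a replicate check, and the intervals given are exact 95% Poisson or binomial intervals that cover counting error only.

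After filtering and doublet removal, 7432 cells remained in the HCC library, 7694 in the high-AFP library, 4962 in the low-AFP library and 5794 in the control library. The libraries shared between 3 and 29 cell barcodes per pair. Hepatocyte-like cells, named from clusters by 12 marker genes, numbered 406 in the HCC library, 3274 in the high-AFP library, 1907 in the low-AFP library and 2356 in the control library. Clusters that scored closest to hepatocytes but stayed unnamed were left out of this class. In HCC they held 365 cells (led by Oat and Glul), 335 (led by Cyp2a4) and 83 (led by Lars2). In control the same clusters held 0, 1 and 242 cells. The HCC values below therefore describe the named cells, not all HCC cells that scored closest to hepatocytes. All 12 markers were above 10 CPM (UMIs per 1000000 nuclear-encoded UMIs, summed over the cells of a class) in every library, and their summed level was 68033 CPM in HCC, 89761 in high-AFP, 118602 in low-AFP and 140981 in control. The HCC library stood apart from the other libraries. Its hepatocyte-like cells held a median of 3052 UMIs, against 14002 in high-AFP, 19734 in low-AFP and 14199 in control, and their summed depth was 2663587 nuclear-encoded UMIs, against 27194199 to 44623403 in the other libraries. Markers of other cell types differed as well, in both directions. The 6 neutrophil markers summed to 162 CPM in HCC, with none at 0, and to 2.04 to 2.68 CPM in the other libraries. The 8 T cell markers summed to 45.4 CPM in HCC, with Cd4 at 0, and to 2.54 to 4.82 CPM in the other libraries. The 9 endothelial markers summed to 13.9 CPM in HCC, with 2 at 0, and to 34.2 to 76.6 CPM in the other libraries. The 8 monocyte markers summed to 266 CPM in HCC, with 1 at 0, and to 934 to 1159 CPM in the others. Only 1 of these 8, Fn1, was above 10 CPM in each library. The monocyte sum is thus mostly that of 1 gene and is not read as RNA of monocytes. Median mitochondrial shares were 3.31% in HCC, 15.0% in high-AFP, 15.9% in low-AFP and 22.0% in control. The part that depth, mitochondrial share and other cells' RNA play in the values below was not tested. Different clusters held most of the class in each library. The cluster led by Pecr and Gnmt held 67.2% of it in HCC, the cluster led by Mup21 and Hamp2 held 41.8% in high-AFP and 41.6% in low-AFP, and the cluster led by Slc10a1 and Alb held 66.6% in control.

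The α1-antitrypsin copies are near identical, which bears on how far their counts can be told apart. On mouse chromosome 12 lie 9 of the members, in 1 cluster of 767.7 kb (GRCm38 with GENCODE annotation), and Serpina7 lies on chromosome X at chrX:139079257-139085236. The coding sequences of Serpina1a to Serpina1e, each 1239 bases long, were between 96.3% and 98.5% identical in pairs. Their differences were concentrated in the exon segment that encodes the reactive loop, and 60 coding bases from it are printed for that reason (bases 1101 to 1160 of the coding sequence, GRCm38, minus strand, capitals marking each position at which the 5 genes are not all alike). In the order of the lines they lie at chr12:103853757-103853816, chr12:103728324-103728383, chr12:103895094-103895153, chr12:103763762-103763821 and chr12:103947100-103947159.
Serpina1a: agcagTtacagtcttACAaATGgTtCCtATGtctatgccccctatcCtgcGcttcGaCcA
Serpina1b: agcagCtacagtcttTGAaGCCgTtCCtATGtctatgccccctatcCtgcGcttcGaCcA
Serpina1c: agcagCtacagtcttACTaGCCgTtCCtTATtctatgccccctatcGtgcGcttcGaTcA
Serpina1d: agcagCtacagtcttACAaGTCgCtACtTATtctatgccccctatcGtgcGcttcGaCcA
Serpina1e: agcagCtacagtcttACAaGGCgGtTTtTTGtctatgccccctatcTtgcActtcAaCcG
In these 60 bases 18 positions varied, against 86 of 1239 over the whole coding sequence and a median of 4 per window of 60. The counts come from the 3′ end, where copies also overlap. In the last 500 transcript bases, 9.73% of the 100-base windows of Serpina1c, 8.23% of those of Serpina1a, 2.74% of those of Serpina1d and 1.25% of those of Serpina1b matched another Serpina gene exactly, and none did in the other members. Serpina3k and Serpina3m were 91.0% identical in coding sequence, and the annotated span of Serpina3m contains that of Serpina3k, as the span of Serpina1b contains Serpina1d. Levels of single copies are therefore uncertain where reads could be split, and sums are given beside them.

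The 5′ flanks of the α1-antitrypsin copies are shown because the copies had different levels and zonal patterns. Over the 250 bases before the annotated start, Serpina1a to Serpina1d were between 84.3% and 91.0% identical in pairs, while Serpina1e was between 58.0% and 64.2% identical to them, its annotated start lying farther from the stretch that all 5 share. RefSeq promoter entries (GRCm38.p6) were found for 7 of the 10 members, not for Serpina6, Serpina3k and Serpina3m. Each stretch below has 86 bases from the minus strand, with capitals on the motif GTTAAT that begins the site read by the hepatocyte factor HNF1. They lie at chr12:103863625-103863710, chr12:103738200-103738285, chr12:103904962-103905047, chr12:103773634-103773719, chr12:103956960-103957045 and chrX:139085278-139085363 in the order of the lines.
Serpina1a: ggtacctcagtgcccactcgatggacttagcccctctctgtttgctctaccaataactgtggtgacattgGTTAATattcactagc
Serpina1b: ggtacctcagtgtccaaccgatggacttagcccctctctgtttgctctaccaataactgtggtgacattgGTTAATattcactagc
Serpina1c: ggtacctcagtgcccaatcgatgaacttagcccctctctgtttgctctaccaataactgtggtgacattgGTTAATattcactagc
Serpina1d: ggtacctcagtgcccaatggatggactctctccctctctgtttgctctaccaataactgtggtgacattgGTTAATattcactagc
Serpina1e: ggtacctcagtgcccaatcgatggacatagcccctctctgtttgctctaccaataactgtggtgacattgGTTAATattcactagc
Serpina7: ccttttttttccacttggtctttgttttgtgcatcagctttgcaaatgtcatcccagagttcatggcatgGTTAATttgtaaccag
GTTAAT was found 21, 26, 27 and 16 bases before the annotated start of Serpina1a, Serpina1b, Serpina1c and Serpina1d, 78 bases before that of Serpina1e and 57 bases before that of Serpina7. On either strand it occurred in 6.43% of 32851 promoters over the same 250 bases before the start. No member's window held the full HNF1 palindrome (0.00913% of promoters), and the window of Serpina3n did not hold GTTAAT. A match of letters is a description and not a bound site.

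In hepatocyte-like cells the family made up a smaller share of the RNA in the 3 other libraries than in control. All 10 members together took 1.17% of nuclear-encoded UMIs in HCC, 1.83% in high-AFP, 1.92% in low-AFP and 3.196% in control. The lower sums came mainly from the α1-antitrypsin copies and Serpina3k, while Serpina7 went the other way, with control lowest. Serpina6 lay within 87.7 to 128 CPM in the 4 libraries, but in HCC 13 cells held 211 of its 287 UMIs. As a mean over cells it had 50.4 CPM in HCC and 126 CPM in control. UMIs are taken from 3′ ends and do not scale with transcript length, so levels can be set side by side between genes. For members with shared 3′ stretches or overlapping annotated spans, this holds only within the uncertainty described above. Among other hepatocyte genes, Alb had 10747 CPM in HCC, 19818 in high-AFP, 36797 in low-AFP and 64829 in control, and Afp 27.4, 3.003, 1.92 and 0.699 CPM in the same order. Not all abundant hepatocyte genes followed Alb. Fabp1 had 25180 CPM in HCC, 18885 in high-AFP, 20025 in low-AFP and 15680 in control, and Ttr 8027, 10832, 11759 and 11029 CPM in the same order.

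**Figure D1:**
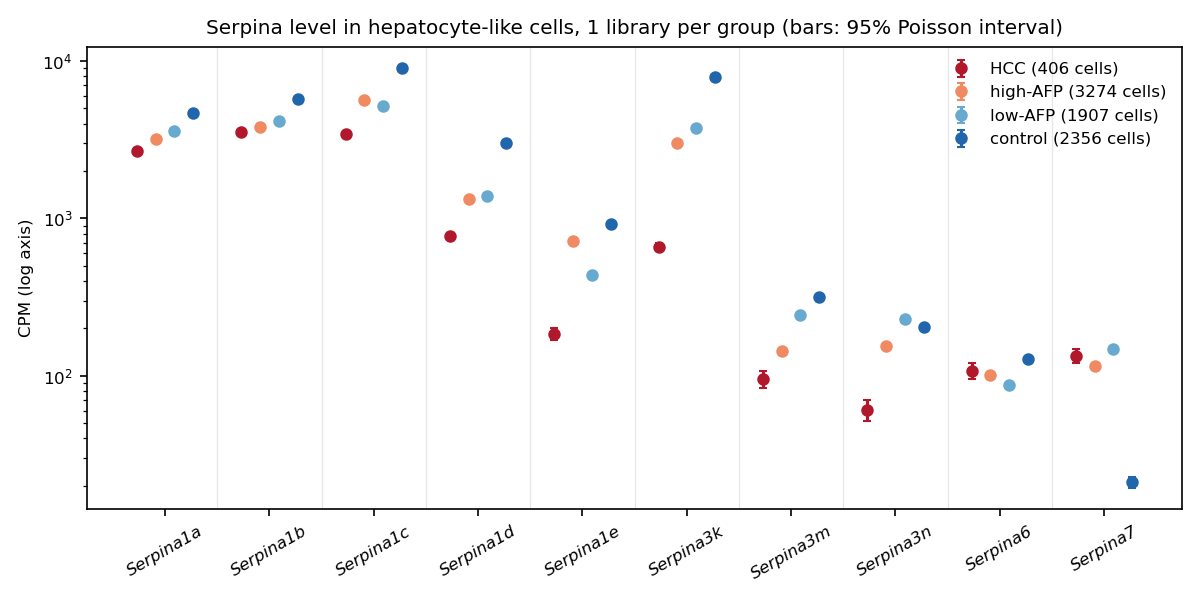
CPM of each of the 10 genes in hepatocyte-like cells of the HCC, high-AFP, low-AFP and control libraries on a log axis, with exact 95% Poisson intervals that cover counting error only. Serpina3k spans 662 CPM in HCC to 7966 CPM in control, and Serpina7, at 20.96 CPM in control, is the only gene of the 10 with its lowest value in that library.

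Among the α1-antitrypsin copies, which inhibit neutrophil elastase and related serine proteases, Serpina1c was the most abundant in the high-AFP, low-AFP and control libraries and Serpina1b in HCC. Serpina1c had 3421 CPM in HCC, 5669 in high-AFP, 5185 in low-AFP and 8995 in control. Serpina1b had 3558 CPM in HCC, 3793 in high-AFP, 4145 in low-AFP and 5730 in control. Serpina1a had 2666 CPM in HCC, 3205 in high-AFP, 3566 in low-AFP and 4660.5 in control. In the named cells all 3 were highest in control and lowest in HCC. All 3 stayed lower in HCC than in control in 15 of 15 alternatives of the processing, which include adding the unnamed clusters. Relative to high-AFP, Serpina1c stayed lower in HCC in 15 of 15 alternatives, Serpina1a in 13 and Serpina1b in 8. The unnamed cluster led by Cyp2a4, with 335 HCC cells, held 15041 UMIs of Serpina1b, 8623 of Serpina1a and 4776 of Serpina1c. The named HCC cells held 9478, 7102 and 9111 UMIs of the same genes. Serpina1d had 767 CPM in HCC, 1323 in high-AFP, 1393 in low-AFP and 3017 in control. Serpina1e, the least abundant copy, had 185 CPM in HCC, 713 in high-AFP, 437 in low-AFP and 918 in control. The 5 copies summed to 10598 CPM in HCC, 14704 in high-AFP, 14725 in low-AFP and 23320 in control. The sums of the high-AFP and low-AFP libraries lay within counting error of each other, with a ratio of 0.999 (0.995 to 1.00).

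The make-up of the α1-antitrypsin sum also differed. Serpina1a took 25.2% of it in HCC, 21.8% in high-AFP, 24.2% in low-AFP and 19.985% in control, and Serpina1b took 33.6% in HCC, 25.8% in high-AFP, 28.1% in low-AFP and 24.6% in control. Serpina1d took 7.24% in HCC, 8.998% in high-AFP, 9.46% in low-AFP and 12.9% in control. HCC thus had the largest shares of Serpina1a and Serpina1b and the smallest of Serpina1d. Serpina1e took 1.75% in HCC, 4.85% in high-AFP, 2.97% in low-AFP and 3.94% in control. Exact matches near the 3′ end were shared by Serpina1c with Serpina1a and Serpina1d, and by Serpina1b with Serpina1d, so the split among these 4 copies is uncertain.

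**Figure D2:**
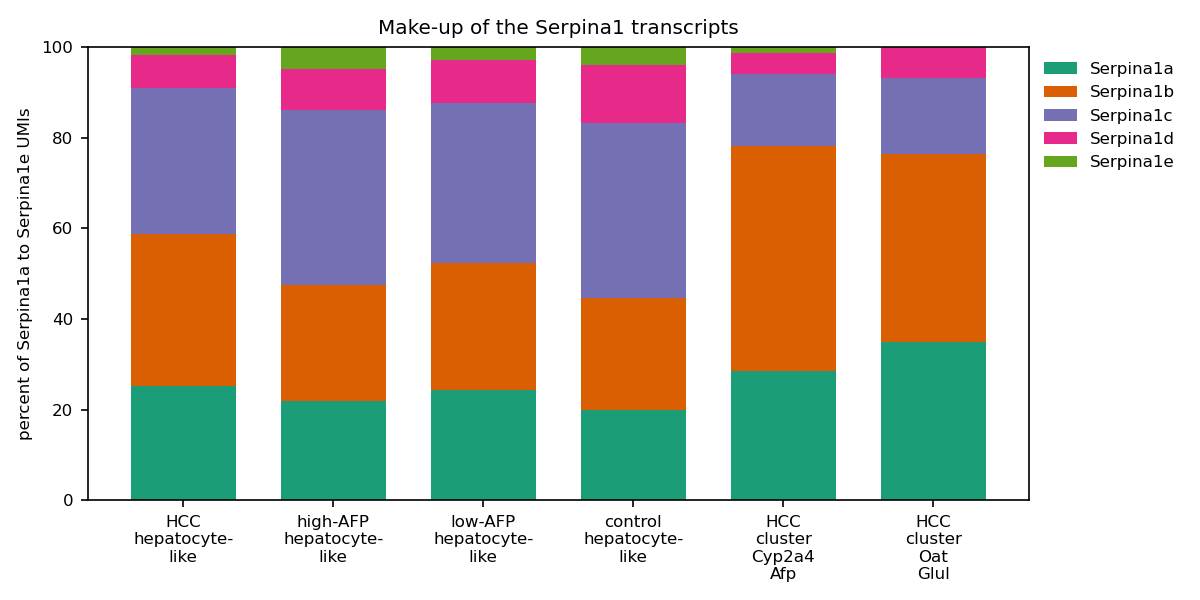
Share of each α1-antitrypsin copy in the summed Serpina1a to Serpina1e UMIs of hepatocyte-like cells, in percent, by library. Further bars show unnamed HCC clusters outside that class, led by Cyp2a4 and by Oat and Glul. The Serpina1d share is 7.24% in HCC and 12.9% in control, and the Serpina1b share is 33.6% in HCC and 24.6% in control.

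Of the α1-antichymotrypsin relatives, Serpina3k, a plasma inhibitor that binds tissue kallikreins, had the widest range. It had 662 CPM in HCC (631 to 693), 3033 in high-AFP (3016 to 3049), 3756 in low-AFP (3736 to 3777) and 7966 in control (7933 to 8000). It ranked 259th among all genes of these cells in HCC, 30th in high-AFP, 26th in low-AFP and 14th in control. Serpina3m, its closest relative in sequence, followed the same order, with 94.6 CPM in HCC, 144 in high-AFP, 244 in low-AFP and 315 in control. Serpina3n, an acute-phase inhibitor that blocks granzyme B, had 60.1 CPM in HCC, 155 in high-AFP, 228 in low-AFP and 205 in control. For Serpina3n, unlike Serpina3k and Serpina3m, the low-AFP value was the highest.

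The carriers had lower levels. Serpina6 had 108 CPM in HCC (95.6 to 121), 101 in high-AFP (97.7 to 104), 87.7 in low-AFP (84.7 to 90.9) and 128 in control (123 to 132). HCC and high-AFP overlap within counting error. Serpina7 had 134 CPM in HCC (120 to 149), 115 in high-AFP (111 to 118), 148 in low-AFP (144 to 152) and 20.96 in control (19.3 to 22.8), from 357, 5114, 5328 and 570 UMIs. The HCC interval overlaps that of low-AFP and lies above that of high-AFP, and control lies apart from the other libraries.

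The 4 libraries were compared in pairs on a log2 scale after adding 10 CPM to both values, with a gene called at 2-fold or more and at least 10 CPM in either library. All 10 members passed this minimum. Comparisons with control share the control library, and those with high-AFP share that library, so their values stand side by side and are not independent.

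Between HCC and control, 6 members were called lower and 1 higher in HCC, where 7.01% of 7584 genes were called lower and 11.7% higher. The median log2 difference was −1.504 over the members and 0.16 over all genes. Serpina3k fell by 3.57, a ratio of 0.0830 (0.0792 to 0.0870), Serpina1e by 2.25 and Serpina1d by 1.96. Serpina3m fell by 1.64, Serpina3n by 1.62 and Serpina1c by 1.39. When unnamed clusters that scored closest to hepatocytes were added to the class, the Serpina3n difference was −0.81 and no longer called, and 5 members were lower. The share of all genes called was not counted for this larger class. These clusters include 1 led by Cyp2a4, with 335 HCC cells, 435 CPM of Afp and 235 CPM of Serpina3n. Serpina7 rose by 2.22, a ratio of 6.39 (5.59 to 7.31). Serpina1a at −0.80, Serpina1b at −0.69 and Serpina6 at −0.22 were not called. In the same comparison 7 of the 10 pericentral genes of the zone index were called higher in HCC and 8 of the 10 periportal ones lower, and Glul, a pericentral gene, had 2413 CPM in HCC and 317 in control. Their part in the member values was not tested.

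The values of several members in HCC rested on few cells. In that library 50% of the Serpina1e UMIs came from 5 of the 406 cells, those of Serpina6 from 5, of Serpina3n from 7 and of Serpina3k and Serpina7 from 8 each, against 30 to 38 cells for Serpina1a to Serpina1d. In control the same share of Serpina1e came from 109 cells and of Serpina7 from 38 cells of 2356. In HCC, 13 cells of the cluster led by Cyp2e1 and Oat, with a median of 64800 UMIs, held 211 of 287 Serpina6 UMIs and 193 of 357 Serpina7 UMIs. Serpina7 is itself among the leading genes of that cluster. Without that cluster Serpina6 had 37.2 CPM in HCC and 124 CPM in control, a log2 difference of −1.51, and was then called lower. Serpina7 without it had 80.4 CPM in HCC, 60.7 in high-AFP, 53.6 in low-AFP and 2.49 in control. As a mean over cells, each cell counting equally, the Serpina6 difference between HCC and control was −1.17.

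Between HCC and high-AFP, 3 members were called lower and 0 higher in HCC, against 3.98% and 4.01% of 7539 genes, and no test was possible. The median was −0.64 over the members and 0.10 over all genes. Serpina3k fell by 2.18, Serpina1e by 1.89 and Serpina3n by 1.23. With the unnamed clusters added, Serpina3n stood at −0.43, and Serpina1c at −1.13 and Serpina1d at −1.01 were called lower. Serpina7 differed by 0.21 and Serpina6 by 0.09. Within the cluster led by Pecr and Gnmt, which alone had at least 50 cells in all 4 libraries, no member reached 2-fold between HCC and high-AFP, where 0.315% of genes were called lower and 1.84% higher. Serpina3k there had 431 CPM in HCC, 489 in high-AFP, 1404 in low-AFP and 4338 in control.

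Between high-AFP and control, 3 members were called lower and 1 higher in high-AFP, against 0.711% and 1.41% of 7037 genes. The median was −0.57 over the members and 0.04 over all genes. Serpina3k fell by 1.39, Serpina1d by 1.18 and Serpina3m by 1.08, and Serpina7 rose by 2.01, a ratio of 5.47 (5.01 to 5.97). The other α1-antitrypsin copies lay between −0.67 and −0.36. With the mitochondrial limit set at 15%, 1 member, Serpina1d, was called lower, and the share of all genes was not counted at that limit.

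Between low-AFP and control, 3 members were called lower and 1 higher in low-AFP, against 0.502% and 0.975% of 6974 genes. The median was −0.48 over the members and 0.03 over all genes. Serpina1d fell by 1.11, Serpina3k by 1.08 and Serpina1e by 1.05, each just past the 2-fold limit. Serpina7 rose by 2.35, a ratio of 7.06 (6.48 to 7.72), and Serpina3n differed by 0.15.

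Between high-AFP and low-AFP no member was called in either direction, where 0.242% of 7026 genes were called higher and 0.128% lower. The widest differences were −0.72 for Serpina3m, 0.69 for Serpina1e and −0.53 for Serpina3n, with a median of −0.14 over the members. Within the cluster led by Pecr and Gnmt, Serpina3k at −1.503 and Serpina3m at −1.22 were called lower in high-AFP and 0 members higher (background 2.04% lower and 0.365% higher). Within the cluster led by Cyp2e1 and Oat, Serpina1e was called higher in high-AFP by 1.15 and 0 members lower (background 0.388% higher and 0.138% lower), with 218 CPM in high-AFP and 92.8 CPM in low-AFP.

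**Figure D3:**
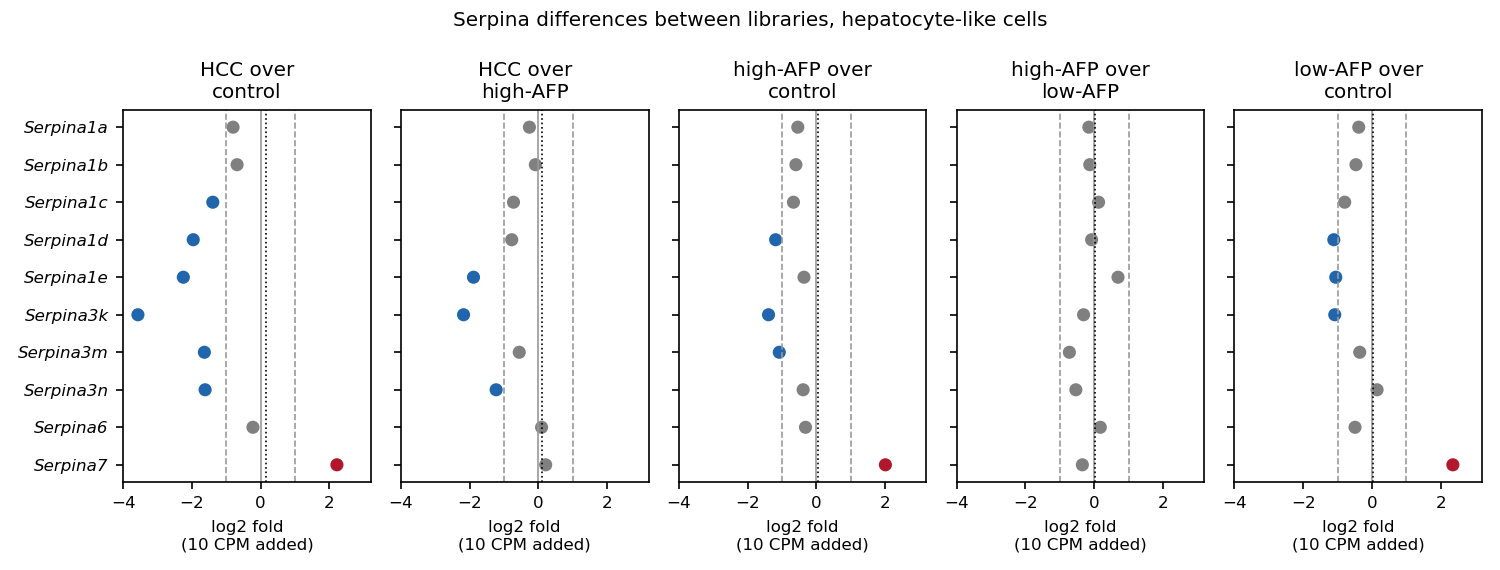
Log2 difference of each gene in hepatocyte-like cells for the 5 library pairs, the first-named library over the second, with red points at least 2-fold higher, blue points at least 2-fold lower and grey points neither. Dashed lines mark the 2-fold limits and dotted lines the median of all genes measured, and Serpina7 is red in all 3 pairs with control while Serpina3k is blue in 4 of the 5 pairs.

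The size of the differences from control depended on the cluster of hepatocyte-like cells. In the cluster led by Pecr and Gnmt, with 273 cells in HCC, 699 in high-AFP, 349 in low-AFP and 247 in control, 7 members were called lower in HCC than in control, 8 in high-AFP and 4 in low-AFP, where 4.86%, 3.69% and 0.722% of genes were called lower. In each of the 3 comparisons 1 member, Serpina7, was higher, where 7.13% of genes were higher in HCC, 2.18% in high-AFP and 1.27% in low-AFP. Serpina1c had 4517 CPM there in HCC, 4945 in high-AFP, 4902 in low-AFP and 11511 in control. Serpina6 had 19.5 CPM in HCC, 20.9 in high-AFP, 43.4 in low-AFP and 52.4 in control. Serpina7 had 66 UMIs in HCC, 115 in high-AFP, 103 in low-AFP and 3 in control, which is 51.6, 30.0, 48.1 and 2.09 CPM.

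In the other clusters with at least 50 cells, most members were not called in high-AFP or low-AFP relative to control. In the cluster led by Mup21 and Hamp2, with 64 control cells, 1 member was lower in high-AFP (background 0.542%) and 1 in low-AFP (0.375%), in both cases Serpina1e. In the cluster led by Slc10a1 and Alb, 0 members were lower in high-AFP (0.373%) and 1, Serpina1e, in low-AFP (0.221%). Serpina3k differed by −0.74 in high-AFP and −0.46 in low-AFP in the Mup21 cluster, and by −0.71 and −0.61 in the Slc10a1 cluster, and Serpina1d lay between −0.71 and −0.59 in the same 4 comparisons. Both are thus under the 2-fold limit in these 2 clusters, and both are among the leading genes of the Slc10a1 cluster. In the cluster led by Chka and Neat1, 0 members were lower in high-AFP (2.08%) and 1, Serpina1e, in low-AFP (1.41%). In the cluster led by Cyp2e1 and Oat, 2 were lower in high-AFP (0.658%) and 2 in low-AFP (0.95%), with Serpina3k at −1.38 in high-AFP and −1.24 in low-AFP, while Serpina1e was higher in high-AFP by 1.09. Serpina7 was called higher in high-AFP in all 4 of these clusters, at 1.27 to 1.46, where 0.485% of genes were higher in the Mup21 cluster, 0.717% in the Slc10a1 cluster, 7.31% in the Chka cluster and 1% in the Cyp2e1 cluster. In low-AFP it was called higher in 3 of them, at 1.02 to 1.56 (0.346% in the Mup21 cluster, 0.544% in the Slc10a1 cluster and 0.964% in the Cyp2e1 cluster), and stood at 0.72 in the Chka cluster (2.59%).

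Liver lobules are zoned from the portal vein to the central vein, and many plasma protein genes are graded along that axis. Hepatocyte-like cells with at least 1000 UMIs were ranked in each library by an index of 10 pericentral and 10 periportal genes that holds no member, and cut into 3 zones of equal cell number. Each library was cut on its own, so a zone is a relative position. The share of placed cells close to a cut was 16.1% in HCC, 17.2% in high-AFP, 16.9% in low-AFP and 33.4% in control. Median depth differed between zones, with 2842 UMIs in the pericentral and 3864 in the periportal zone of HCC, and 9984 and 18122 in those of control.

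Serpina7 was highest in the pericentral zone of every library. It had 218, 123 and 23.1 CPM in the pericentral, middle and periportal zones of HCC and 285, 71.5 and 24.3 CPM in those of high-AFP. It had 344, 63.2 and 17.5 CPM in low-AFP, while control had 73.7, 1.59 and 0.822 CPM, where 547 UMIs were pericentral, 14 middle and 9 periportal. The pericentral zone thus held nearly all Serpina7 UMIs of the control library, while the middle zone of HCC, high-AFP and low-AFP lay at 63.2 to 123 CPM. After adding 10 CPM, the log2 difference between the pericentral and the periportal zone was 2.78 in HCC, 3.10 in high-AFP, 3.68 in low-AFP and 2.95 in control. The ratios without that addition were 9.42, 11.7, 19.6 and 89.7 in the same order, so the added CPM weighs most on control, with its 9 periportal UMIs.

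Serpina1e had the opposite gradient and the steepest among the α1-antitrypsin copies. It had 9.71, 105 and 489 CPM in the pericentral, middle and periportal zones of HCC, 199, 707 and 1094 CPM in high-AFP, 142, 583 and 617 CPM in low-AFP, while control had 264, 745 and 1501 CPM. The log2 differences were −4.66 in HCC, −2.40 in high-AFP, −2.05 in low-AFP and −2.46 in control. The HCC value rests on 12 pericentral UMIs, and 5 of the 406 hepatocyte-like HCC cells held 50% of the Serpina1e UMIs. The other 4 copies were graded the same way but less steeply. Serpina1c differed by −2.13 in HCC, −0.99 in high-AFP, −0.92 in low-AFP and −0.40 in control, and Serpina1d by −1.49, −1.02, −1.04 and −0.51 in the same order. Serpina1a and Serpina1b lay between −1.19 and −0.22.

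Serpina6 differed by 2.34 in HCC, with 198 CPM in the pericentral and 31.2 in the periportal zone, and by 0.01 in high-AFP, 0.29 in low-AFP and 0.11 in control. Serpina3k lay between −0.88 in HCC and −0.14 in control, Serpina3m between −0.37 and 0.09, and Serpina3n between −0.31 in control and 0.51 in HCC. None of the 3 was called in any library.

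Counted over the members, 2 were at least 2-fold higher in the pericentral zone of HCC (Serpina6 and Serpina7, background 7.62%) and 5 lower (Serpina1a to Serpina1e, 2.3%). In high-AFP, 1 was higher (2.41%) and 2 lower (1.11%), in low-AFP 1 was higher (1.78%) and 2 lower (1.02%), and in control 1 was higher (1.77%) and 1 lower (0.501%). The higher member in these 3 was Serpina7, and the lower ones were Serpina1e in all 3 and Serpina1d in high-AFP and low-AFP. Without the cluster led by Cyp2e1 and Oat, Serpina6 in HCC stood at 0.71, Serpina7 in control at 0.67 and Serpina1e in low-AFP at −0.47, all under the limit. That cluster is itself pericentral, with 305 pericentral, 2 middle and 0 periportal cells in control and 351, 16 and 0 in low-AFP. Leaving it out removes much of the pericentral end, so smaller differences follow from the choice and are not read as an absent gradient. With the cuts of the control library applied to all libraries, HCC had 348 pericentral and 8 periportal cells, and Serpina1e in HCC turned to 1.85.

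**Figure D4:**
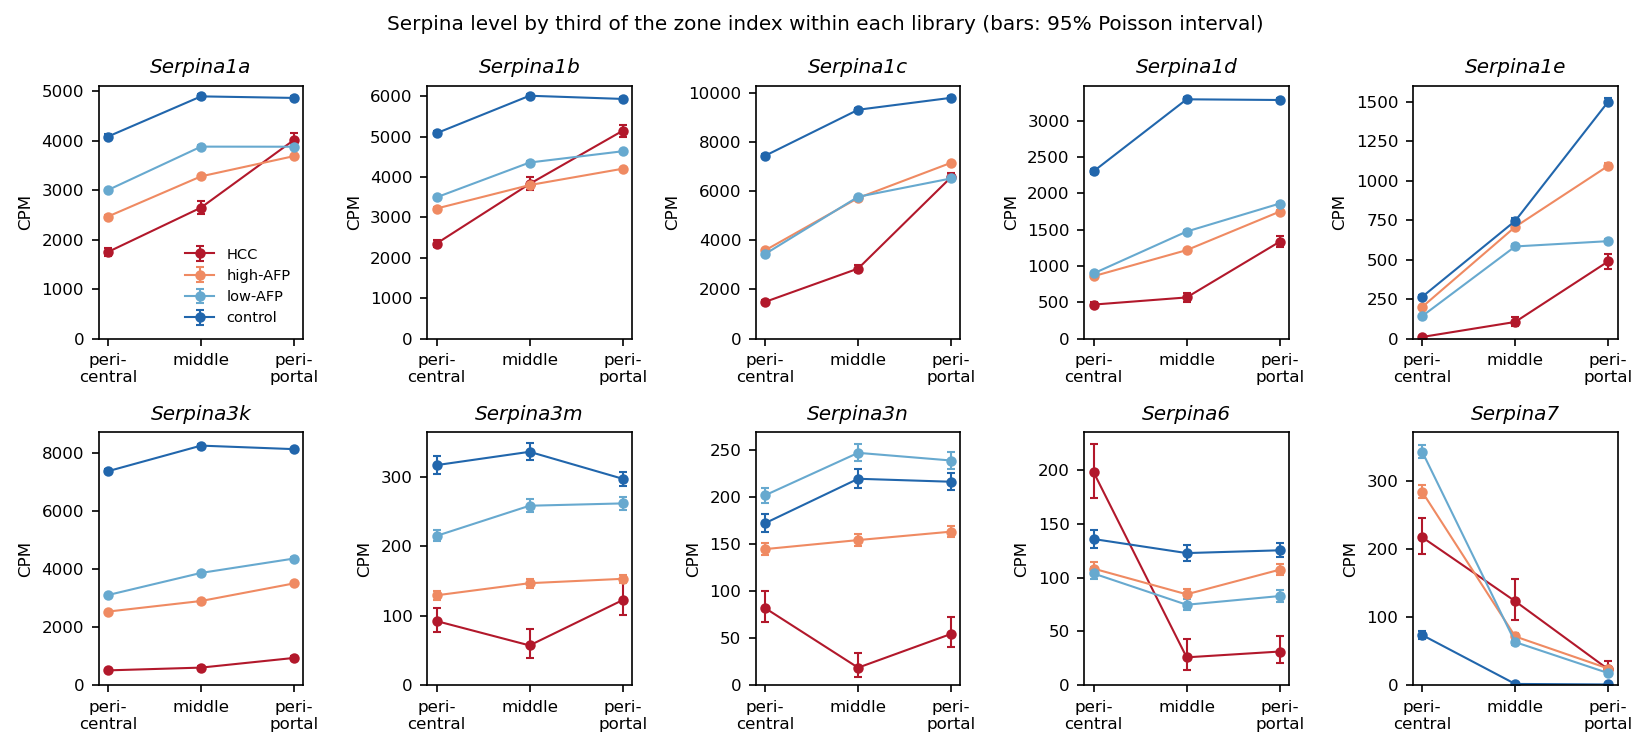
CPM of the genes in the pericentral, middle and periportal zones of hepatocyte-like cells in each library. Serpina7 declines from the pericentral to the periportal zone in each of the 4 libraries, and Serpina1e is lowest in the pericentral zone of each, from 9.71 CPM in HCC to 264 CPM in control.

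Within a library the counts varied most from cell to cell for Serpina1e. With each cell thinned to 3000 UMIs, its variance over its mean was 17.4 in HCC, 9.71 in high-AFP, 10.2 in low-AFP and 7.87 in control, over 207, 2646, 1677 and 2153 cells. The median cell had 0 Serpina1e UMIs in every library, while the highest had 42 in HCC, 44 in high-AFP, 68 in low-AFP and 45 in control. Serpina3k had a median of 1 UMI per cell in HCC, 7 in high-AFP, 9 in low-AFP and 18 in control, so its difference was visible in the middle cell.

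The share of hepatocyte-like cells with at least 1 UMI was compared after thinning each cell to 1000 UMIs, which left out 26 cells in HCC, 79 in high-AFP, 21 in low-AFP and 19 in control. Serpina3k was seen in 30.8% of cells in HCC, 73.8% in high-AFP, 82.5% in low-AFP and 97.9% in control (unthinned 54.4%, 92.5%, 97.5% and 99.7%). T cell-like cells, which should lack it, showed it in 1.7%, 19.4%, 26.3% and 37.6%. Serpina7 was seen in 8.2% of hepatocyte-like cells in HCC, 6.9% in high-AFP, 7.7% in low-AFP and 1.7% in control (unthinned 20.2%, 29.2%, 32.1% and 8.8%), and in no more than 1.2% of T cell-like cells of any library. Unthinned, T cell-like cells showed Serpina3k in 5.41%, 52.4%, 66.25% and 81.2% of cells, and Serpina7 in 0.915%, 3.37%, 1.75% and 0.458%. The hepatocyte-like share was above the T cell-like share for both genes in each library. The unthinned medians were 3052, 14002, 19734 and 14199 UMIs in hepatocyte-like cells and 4252.5, 3539.5, 4216 and 3971 in T cell-like cells.

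UMIs of the family were also present in classes not known to express it. The α1-antitrypsin sum was 265 CPM in HCC, 1403 in high-AFP, 1098 in low-AFP and 2201 in control in T cell-like cells, and 260, 871, 858 and 1628 CPM in endothelial-like cells. Set against the summed Alb, Apoa1, Apoa2, Ttr and Fabp1 of the same cells, the endothelial-like ratio was 1.70 times that of hepatocyte-like cells in HCC, 0.829 times in high-AFP, 1.05 times in low-AFP and 0.919 times in control. Serpina3n did not keep such a ratio. In endothelial-like cells it had 76.4 CPM in HCC (58.3 to 98.4), 45.2 in high-AFP (39.9 to 51.0), 47.0 in low-AFP (40.5 to 54.3) and 14.4 in control (11.6 to 17.7), and its ratio to the same 5 transcripts, relative to hepatocyte-like cells, was 88.4 in HCC, 4.09 in high-AFP, 3.72 in low-AFP and 0.924 in control. The class was made up of different clusters, since the cluster led by Rspo3 and Vwf held 67 of its 83 cells in HCC, 100 of 1288 in high-AFP, 47 of 826 in low-AFP and 36 of 1547 in control. That cluster had the highest level, with 89.6 CPM in HCC (60 UMIs, 67 cells), 194 in high-AFP (118 UMIs, 100 cells), 172 in low-AFP (62 UMIs, 47 cells) and 29.2 in control (6 UMIs, 36 cells). Within it HCC lay below high-AFP and low-AFP, the reverse of their order over the class. In the cluster led by Kdr and Bmp2, Serpina3n had 27.3 CPM in high-AFP, 34.4 in low-AFP and 14.5 in control.

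**Figure D5:**
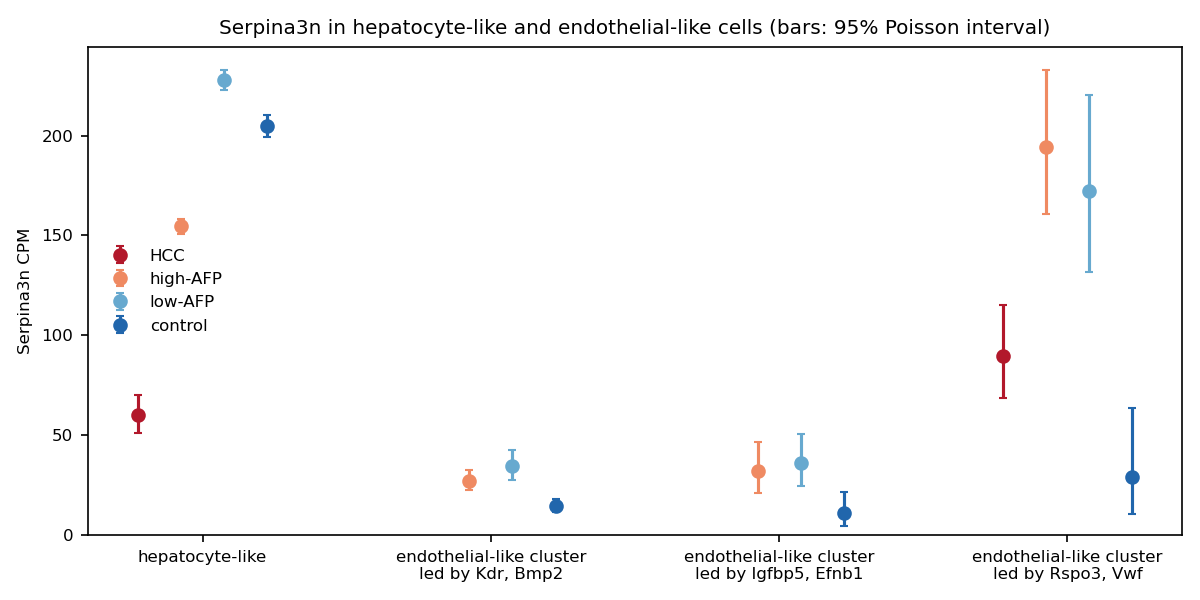
Serpina3n CPM by library in hepatocyte-like cells and in single endothelial-like clusters, with exact 95% Poisson intervals that cover counting error only. The clusters are those led by Kdr and Bmp2, by Igfbp5 and Efnb1, and by Rspo3 and Vwf. Over the whole endothelial-like class, which is not drawn, HCC has 76.4 CPM, high-AFP 45.2, low-AFP 47.0 and control 14.4, from different mixes of clusters. Of its cells, 67 of 83 in HCC and 36 of 1547 in control are in the cluster led by Rspo3 and Vwf.

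Patterns close to the members' were described by Pearson's r over 12 sums (3 zones in 4 libraries), among 3395 genes. The sums share libraries and depth, so r is a description only. For the α1-antitrypsin sum the closest genes were Hal (0.951), which is itself in the zone index, Uroc1 (0.943) and Kyat1 (0.938). For Serpina3k with Serpina3m they were Slc10a1 (0.989), Slc25a23 (0.989) and Akr1d1 (0.982), and for Serpina3n Hsp90b1 (0.994), Qsox1 (0.990) and Fn1 (0.989). For Serpina6 they were Arfgef1 (0.972), Atp8b1 (0.968) and Ormdl3 (0.959), and for Serpina7 Aldh3a2 (0.982), Aox1 (0.979) and Pigp (0.973).

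Genes that act around the family were counted from lists, to be read against the background shares above. Of 6 other plasma serpins, 5 passed the minimum and 5 were called lower in HCC than in control, with a median of −1.64, among them Serpinc1, antithrombin, at −1.64, and Serping1, the C1 inhibitor, at −1.64. Of 10 serine proteases that plasma serpins inhibit, 5 passed the minimum and 4 were called lower in HCC, with Klkb1, plasma prekallikrein, at −2.05 and Plg, plasminogen, at −1.84. In neither list was a gene called in high-AFP or low-AFP relative to control. Of 20 acute-phase genes that passed the minimum, 5 were called higher and 10 lower in HCC relative to control. In high-AFP and in low-AFP relative to control, 5 of the 20 were higher and 0 lower, in comparisons that share the control library. Saa1, an acute-phase apolipoprotein, rose by 1.16 in high-AFP and by 1.497 in low-AFP. Lcn2, which binds bacterial siderophores, rose by 1.67 in high-AFP and by 2.55 in low-AFP. Of thyroid-related genes, 4 of 8 were lower in HCC, 2 in high-AFP and 3 in low-AFP relative to control, and 0 were higher. Slco1a1, an organic anion carrier, fell by 2.54 in low-AFP. Of 13 genes for protein folding in the endoplasmic reticulum, 9 were lower and 1 higher in HCC than in control.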

How the data were processed

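The authors deposited UMI counts per gene and barcode. Cell Ranger 3.0.2 made the matrices, per the file headers, and R 3.0, Seurat 3 and the mm9 build also appear in the submitters' processing notes. Per the labels, RNA was read with a 10x 3′ kit in paired reads of 100 bases. A barcode was kept from 300 genes and 500 UMIs upward if its mitochondrial share did not exceed 30% (8004 in HCC, 8477 in high-AFP, 5359 in low-AFP and 6359 in control). Scrublet's automatic threshold marked 0 to 12 barcodes per library, so the highest-scoring barcodes were removed at 0.8% per 1000 barcodes, which took 397 to 783 per library. Total counts per library were 65326793 to 97393862 UMIs. The 25882 cells left were clustered (scanpy 1.11.5, leidenalg 0.10.2; 2000 variable genes without the members, 30 components, 15 neighbours, resolution 1), giving 36 clusters, of which 31 were named by marker lists with a score margin of 0.5 that was set after the data were seen. Unnamed clusters were not used for the class. UMIs were summed per class and library. Values and 2-fold calls are described with the results. With 1 library per group, no test between groups was run. Members and lists were chosen with earlier results of these data known. The genes named beside the members are the 3 with the highest r per unit, and for lists those with large differences. GENCODE M21 and RefSeq tables of GRCm38 gave coordinates and sequences, and all 10 members matched by identifier and symbol. Coding rather than protein sequences were compared.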

Additional observations from a re-analysis of the deposited data

Results flagged for a closer look

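Serpina3n had UMIs in endothelial-like cells, which lie outside the hepatocyte comparisons, at a level above that of the control library. Its level there was 76.4 CPM in HCC, 45.2 CPM in high-AFP and 47.0 CPM in low-AFP, against 14.4 CPM in control, from 60, 263, 185 and 90 UMIs. The endothelial-like cells numbered 83, 1288, 826 and 1547. Different clusters make up the class, with 67 of the 83 HCC cells but 36 of the 1547 control cells in the cluster led by Rspo3 and Vwf. Within that cluster Serpina3n had 89.6 CPM in HCC, 194 in high-AFP, 172 in low-AFP and 29.2 in control, so that HCC lay below high-AFP and low-AFP. No test was possible with 1 library per group.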

How the results depend on the processing

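Of 170 counts of called members and class ratios under alternatives, 157 stayed within 1.5 times the reported value on the same side, 11 moved further and 2 reversed. Of 1074 values of single members and class ratios of the α1-antitrypsin sum, 529 stayed within their counting interval, 542 moved beyond it and 3 reversed. The 3 were Serpina1e across the zones of HCC and the ratio of the sum in HCC and low-AFP. A value counted as reversed only if the reported one was at least 2-fold, so other sign changes are among the rest. Serpina6 between HCC and high-AFP, for example, kept its direction in 7 of 15 alternatives. The cause of these changes was not tested. Of the members lower than control in high-AFP, 1 was left at a mitochondrial limit of 15% and 1 in the periportal zone only, while 8 were counted in the cluster led by Pecr and Gnmt. Of those lower in low-AFP than in control, 1 was left in the periportal zone only. Lower in HCC than in high-AFP were 7 in the middle zone only and 0 in that cluster, and lower in high-AFP than in low-AFP were 2 in it. The share of all genes called was counted only for the reported values and within single clusters. Other counts of members in this paragraph have no background beside them and are not read as a result about the members. Zone calls were counted as pairs of member and library over the 4 libraries. With the cuts of the control library, 4 pairs were lower in the pericentral zone (10 as reported), and Serpina1e in HCC turned to 1.85. Without the cluster led by Cyp2e1 and Oat, which lies almost wholly in the pericentral zone, 3 pairs were higher (5 as reported). Relative to Alb, Apoa1, Apoa2, Ttr and Fabp1 instead of CPM, Serpina3n in endothelial-like over hepatocyte-like cells was 88.4 in HCC, 4.09 in high-AFP, 3.72 in low-AFP and 0.924 in control (1.27, 0.292, 0.206 and 0.0702 by CPM), and the α1-antitrypsin sum was 1.70 in HCC and 1.05 in low-AFP. The alternatives with single clusters were chosen after seeing the data. Between HCC and control, 5 to 7 members were lower and Serpina7 was higher in every alternative, at 1.44 to 3.52, and Serpina3k lay between −4.22 and −3.11. Serpina6 in that comparison ranged from −1.89 to 0.51. The 406 hepatocyte-like HCC cells limit the precision of the rarer members there. No paired analysis was possible because each group had 1 library.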

Other observations

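Of 15 other genes of the family listed beside the members, 14 were in the files and 3 passed the minimum in hepatocyte-like cells in the comparisons made. Serpina12 had 599.9 CPM in HCC, 656 in high-AFP, 577 in low-AFP and 416 in control. Serpina10, the protein Z-dependent inhibitor, had 98.0 CPM in HCC, 136 in high-AFP, 173 in low-AFP and 130 in control. Serpina11 had 31.2 CPM in HCC, 50.4 in high-AFP, 59.5 in low-AFP and 57.9 in control. None of the 3 was called in any of the 5 comparisons. Other relatives of the α1-antichymotrypsin group were seen outside hepatocytes instead. Serpina3g had 268 CPM in HCC, 265 in high-AFP, 230 in low-AFP and 191 in control in T cell-like cells, and 204, 305, 437 and 192 CPM in endothelial-like cells. Serpina3f had 26.7 CPM in HCC, 121 in high-AFP, 191 in low-AFP and 64.5 in control in endothelial-like cells.

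Clusters of HCC cells that scored closest to hepatocytes but stayed unnamed, and so lie outside the values of the report, differed from each other in the family. The cluster led by Cyp2a4, with 335 HCC cells and 435 CPM of Afp, had 7658 CPM of Serpina1b, 4390 of Serpina1a and 2432 of Serpina1c, so that Serpina1b took 49.7% of the α1-antitrypsin sum of 15395 CPM. It had 251 CPM of Serpina7, 235 of Serpina3n and 247 of Serpina3k. The cluster led by Oat and Glul, with 365 HCC cells, had an α1-antitrypsin sum of 2685 CPM, 27.0 CPM of Serpina7, 8.3 of Serpina3n and 58.1 of Serpina3k. The first was shallower than named hepatocyte-like cells of the other libraries, with a median of 1996 UMIs, and the second had 1479.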
